A study of Parasteatoda tepidariorum with 2 samples.

Results

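*Pt-BarH1* (LOC107456035, annotated as homeobox protein B-H1) is a single gene of the spider *Parasteatoda tepidariorum*, chosen by its identifier, and is described here in every library in which it was counted. It was 1 of 19692 genes in the stage-7_nucleus library, 1 of 13766 in the stage-7_cell library and 1 of 19099 in the late stage-5_nucleus library. Wild-type whole embryos at stage 7, the early germ band on which segmental stripes form, were used to make 1 library of dissociated cells from 15 embryos and 1 library of isolated nuclei from 20 embryos. The late stage-5 nuclei come from the preceding germ disc, in which the future anterior–posterior (AP) axis runs along the radius from the rim to the center. Each condition was 1 library of pooled embryos, so values carry counting intervals only and no test between conditions was possible.

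Bar genes encode homeodomain transcription factors. In *Drosophila*, the paired genes *BarH1* and *BarH2* act in the eye, in external sensory organs and in the distal leg segments. In the spider germ band, ectoderm is laid out as a series of bands along the AP axis, each marked by its own set of transcription factors and signaling genes, from the head through the thorax to the opisthosoma.

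The libraries held 6239 stage-7 nuclei with a median of 10452 molecules each, 4820 late stage-5 nuclei with a median of 5413, and 865 stage-7 cells with a median of 9159. They shared between 5 and 33 cell barcodes per pair, at most 0.694% of the smaller library. Nuclei were counted over exons and introns and cells over exons alone, and this difference cannot be told apart from the difference between nuclei and cells. Levels below are molecules of *Pt-BarH1* per 10000 molecules of all genes, pooled over the barcodes named, with 95% exact Poisson intervals in parentheses. These intervals cover counting error alone. *Pt-BarH1* counts varied more between nuclei than Poisson counts do. Intervals without overlap therefore do not show a difference beyond that spread. Percentages of barcodes with at least 1 molecule carry 95% Clopper-Pearson intervals where given.

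*Pt-BarH1* was abundant in the germ disc and far scarcer in the germ band. The late stage-5 nuclei held 21647 molecules, a level of 8.08 (7.97–8.18). The stage-7 nuclei held 4042 molecules, a level of 0.588 (0.570–0.606), and the stage-7 cells held 168 molecules, a level of 0.194 (0.166–0.226). The late stage-5 level was thus 13.7 times (13.3–14.2) that of stage-7 nuclei. Of 11580 genes compared between these 2 libraries, 27.5% were at least 2-fold lower at stage 7 and 0.328%, or 38 genes, were at least 10-fold lower, *Pt-BarH1* among them. In a whole library, fewer expressing nuclei and less RNA in each cannot be told apart from the level alone, and the share of nuclei with a molecule itself depends on level and depth. At least 1 molecule was seen in 45.1% of late stage-5 nuclei, 15.6% of stage-7 nuclei and 8.90% of stage-7 cells. With every barcode thinned to 2000 molecules, these shares were 38.1%, 6.76% and 3.01%. The highest count in 1 nucleus was 67 at late stage 5 and 33 at stage 7, and the highest in 1 cell was 9. At late stage 5, 858 nuclei with 10 or more molecules carried 75.4% of the total, and at stage 7, 124 such nuclei carried 47.6%. Nuclei had a level 3.02 times (2.59–3.55) that of cells at stage 7. The slight difference in age, the egg sac and the counting cannot be told apart in this ratio.

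Along the stage-7 axis, *Pt-BarH1* formed a single narrow band in the posterior head and anterior thorax. The study placed 1387 ectoderm nuclei on an axis of 80 positions, from the anterior end to the posterior end. The smoothed profile of log-normalized values had 1 peak, at position 31. It stood above 50% of its maximum from position 27.6 to 34.5, a width of 6.88 positions. The rise from 10% to 90% of the maximum took 4.54 positions on the anterior side, and the fall took 4.86 on the posterior side. The study computed its map from variable genes, which may have included *Pt-BarH1* itself. Each nucleus was therefore also given the median study position of its 15 nearest axis nuclei, found in a map computed without the gene. The peak was again at 31 and the width was 8.42. Only the search for neighbors left the gene out. The neighbors' positions were still the study's, so its part in the study's map could not be removed this way.

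Pooled counts showed how sharply the band was bounded. In stretches of 5 positions, the level was 5.94 (5.419–6.505) in positions 25 to 30, where 78.3% of 69 nuclei had a molecule. It was 8.34 (7.72–8.98) in positions 30 to 35, with 86.9% of 84 nuclei. The other stretches lay between 0.0357 and 0.130, with 3.70% to 8.45% of nuclei. The anterior neighbor, positions 20 to 25, had 0.126 (0.0703–0.207), and the posterior neighbor, positions 35 to 40, had 0.0920 (0.0370–0.190). Position by position, the level was 0.299 at 24 to 25, 0.911 at 25 to 26, 4.205 at 27 to 28 and 10.2 (9.13–11.4) at 29 to 30, where 96.2% of 26 nuclei had a molecule. It was still 3.65 at 34 to 35 and dropped to 0.463 (0.0955–1.35) at 35 to 36. The study's head region (positions up to 33) and thorax region (28 to 58) both contain the band and had levels of 1.52 and 1.89, and the opisthosoma region (55 to 80) had 0.0669 (0.0451–0.0955).

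**Figure D1:**
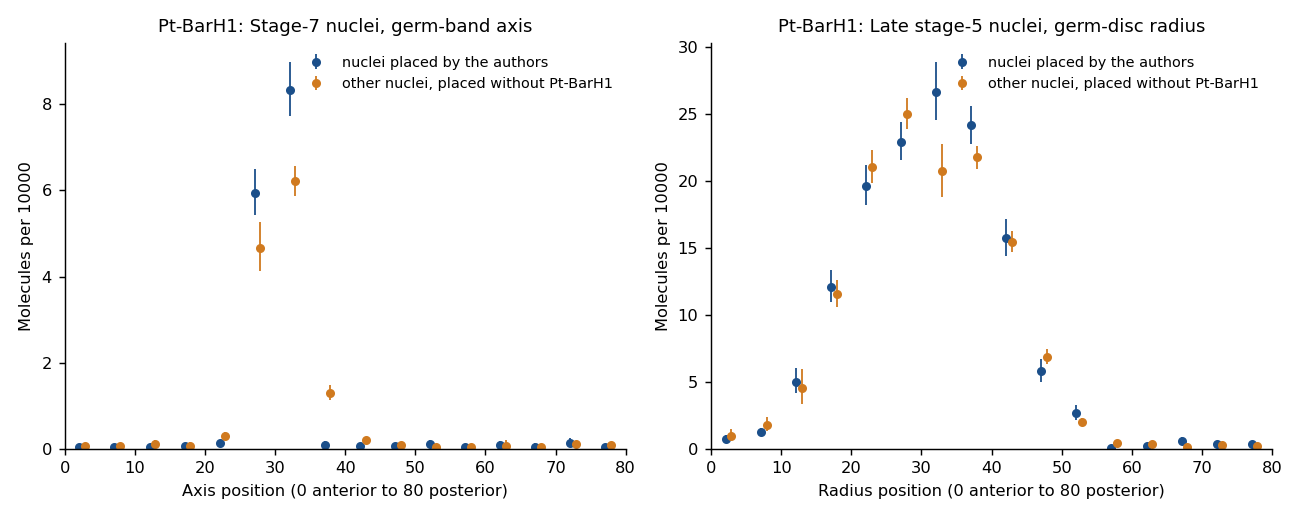
*Pt-BarH1* molecules per 10000 (y axis) in stretches of 5 positions along the stage-7 axis (left) and the late stage-5 radius (right), with 95% Poisson intervals as bars. Blue points are the nuclei placed by the authors. Orange points are other nuclei, placed by the study positions of neighbors found without *Pt-BarH1*. The stage-7 band spans positions 25 to 35 in the blue points, with 8.34 at its highest stretch, and the late stage-5 domain is broad, with 26.6 at its highest.

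The same band appeared in nuclei and cells that were not on the study's axis. A further 2522 nuclei from the same clusters lay away from the axis line. They were placed by the study positions of their 15 nearest axis nuclei, found without *Pt-BarH1*. Their level was 4.67 (4.14–5.26) in positions 25 to 30 and 6.21 (5.88–6.56) in 30 to 35, and 1.29 (1.12–1.48) in 35 to 40. Both levels within 25 to 35 were below those of the axis nuclei, with no overlap of intervals. The intervals leave out the spread between nuclei, and the difference was not tested against it. On both sides of the band, levels were above those of the axis nuclei, again without overlap. This held for 35 to 40, for 20 to 25 (0.308, 0.233–0.398, against 0.126) and for 40 to 45 (0.205, 0.149–0.276, against 0.0664). For 601 cells of the clusters low in mesoderm and endoderm markers, positions were assigned from 212 other patterned genes. Cells had 2.10 (1.67–2.60) in positions 25 to 30, where 56.1% of 41 had a molecule, and 1.34 (1.00–1.76) in 30 to 35, where 63.4% of 41 did. The other stretches of cells had at most 0.156. The order of the top 2 stretches was thus the opposite of that in nuclei, and the 2 cell intervals overlapped.

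Within the band most, but not all, nuclei carried *Pt-BarH1*. The 126 axis nuclei above 50% of the maximum, 9.08% of those placed, held 88.4% of the placed molecules at a level of 8.46 (7.97–8.97). Among them 112, or 88.9% (82.1–93.8%), had a molecule, with a median of 8, and with thinning the share was 65.1%. The variance of the count over these nuclei was 5.44 times its mean of 8.81. Nuclei without a molecule made up 11.1%, where a Poisson count at the depth of each nucleus would give 0.158%. Of these 14 nuclei, 4 lay among the 81 nuclei at positions 29 to 32 and 7 among the 25 nuclei posterior to them. Anterior and posterior of the 50% limits, with the flanks of the band included, the levels were 0.108 (0.0836–0.138) and 0.0943 (0.0748–0.117). There 7.13% and 7.01% of nuclei had a molecule.

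Across germ layers at stage 7, the gene was highest in ectoderm, and a weaker site was seen among nuclei with *Pt-twist*, the mesoderm marker. Nuclei were clustered anew with *Pt-BarH1* left out, giving 28 clusters. Cluster 2, with 421 nuclei and a median axis position of 30.9, had a level of 6.24 (6.01–6.47) and held 68.9% of all *Pt-BarH1* molecules. The next level was that of cluster 16, 1 of the 3 clusters led by *Pt-twist*, at 1.16 (1.02–1.31), with 44.8% of its 181 nuclei positive. The other *Pt-twist* clusters, 17 and 11, had 0.254 (0.190–0.333) and 0.156 (0.112–0.210). Their intervals overlapped each other and lay below that of cluster 16. As a reference for stray RNA, cluster 12, which had the highest level of the endoderm and extraembryonic marker At_eW_012_A08, had 0.0495 (0.0283–0.0804), with 5.83% of 240 nuclei positive at a median of 13802 molecules. The intervals of 14 of the 28 clusters lay above that of cluster 12. Shares at or below 5.83%, which include 6 of the 14 stretches outside the band, are read as background. The rest of the 14 were not told apart from it. Their intervals included 5.83%, as in positions 35 to 40 with the highest share, 8.45% (3.16–17.5%). With thinning, the share was 0% in cluster 12 and 2.38% and 1.46% anterior and posterior of the band. Clusters 4, 13 and 15, which had the fewest genes per nucleus, had levels of 0.390, 0.495 and 0.295, with *Pt-twist* at 0.682, 0.495 and 0.498.

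The positive nuclei of *Pt-twist* cluster 16 did not carry the other genes of the ectodermal band at its levels. The 81 nuclei with *Pt-BarH1* had *Pt-twist* at 2.98 (2.65–3.34), as did the 100 without it (2.98, 2.68–3.32), against 0.0588 in the 112 positive nuclei of the band. *Pt-Notch*, which encodes the Notch receptor, was at 2.63 in the 81 nuclei and 2.45 in the 100, against 29.4 in the band. The labial-type Hox gene *Pt-lab-A* was at 0.271 and 0.227, against 2.61. *Pt-h15-1*, a T-box gene related to *Drosophila* H15, was at 6.26 (5.78–6.77) with *Pt-BarH1* and 3.73 (3.387–4.103) without it. Head genes did not all go 1 way. *Pt-six3-1*, a marker of the anterior head, was lower with *Pt-BarH1*, at 0.1204 (0.0622–0.210) against 0.654 (0.514–0.820). These levels came from 12 molecules in 6.17% of nuclei and from 75 molecules in 13% of nuclei. The head marker *Pt-otd* was higher with it, at 0.441 (0.321–0.593) against 0.227 (0.148–0.332), with intervals that just overlapped. *Pt-otx2* was at 0.462 (0.338–0.616) and 0.645 (0.507–0.810), also with overlapping intervals. Nuclei with *Pt-BarH1* had a median depth of 12777 molecules and those without it 11195. With thinning, the positive share of the cluster was 17.1%. In cells, the clusters led by *Pt-twist* had 0.137 (0.0747–0.229) in 92 cells and 0.0213 (0.00258–0.0768) in 89 cells, and the highest cluster had 0.457 (0.382–0.542) in 284 cells.

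**Figure D2:**
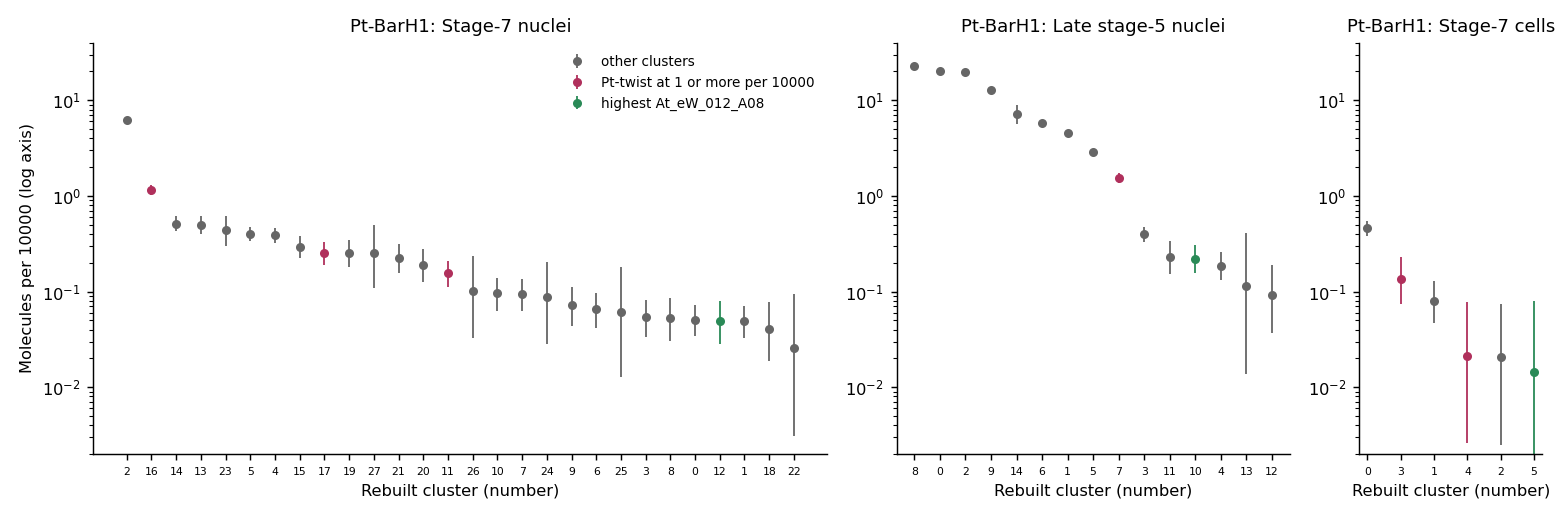
*Pt-BarH1* molecules per 10000 (y axis, log scale) in each cluster rebuilt without the gene, ordered by level, with 95% Poisson intervals that may run below the axis. Red marks clusters with *Pt-twist* at 1 or more per 10000 and green the cluster with the highest At_eW_012_A08. Stage-7 nuclei have 1 high cluster at 6.24 followed by a *Pt-twist* cluster at 1.16, and late stage-5 nuclei have 3 clusters near or above 19.5.

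At late stage 5, *Pt-BarH1* filled a broad middle zone of the germ disc. Along the radius of 80 positions with 1140 placed nuclei, the profile stood above 50% of its maximum from 16.9 to 44.6, a width of 27.7 positions. The anterior flank took 17.3 positions to rise from 10% to 90% of the maximum and the posterior flank 12.4 positions to fall. The level was 0.741 in positions 0 to 5, 5.02 in 10 to 15, 12.1 in 15 to 20 and 19.6 in 20 to 25. It was 22.9 (21.5–24.3) in 25 to 30, 26.6 (24.5–28.8) in 30 to 35, where all 39 nuclei had a molecule, and 24.1 (22.8–25.6) in 35 to 40. Then it was 15.7 in 40 to 45, 5.80 in 45 to 50 and 2.67 in 50 to 55, and at most 0.546 beyond. The single maximum, at position 33, lay on a plateau, and its place depended on the processing, from 33 to 39 among the profiles computed. Over the same profiles, the anterior limit lay between 16.9 and 19.3 and the posterior limit between 43.3 and 45.3. In 2005 other nuclei, placed by neighbors found without the gene, the highest stretch was 25 to 30, at 25.0 (23.9–26.1). There 30 to 35 had 20.7 (18.8–22.8).

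The 373 radius nuclei above 50% of the maximum had a level of 20.9 (20.3–21.5), and 92.5% (89.3–94.9%) of them had a molecule, with a median of 9. Of the 28 without one, only 2 lay among the 208 nuclei at positions 25 to 40. The germ-disc nuclei above 50% of the maximum had 2.47 times (2.31–2.64) the level of the germ-band nuclei above 50% of the maximum. That ratio was 10.3 (9.70–11.0) over all placed nuclei and 13.7 over all nuclei. Both sets above 50% of the maximum were chosen by the gene's own profile. In the other nuclei, placed by neighbors, levels within these limits were 19.9 (19.5–20.4) in the germ disc. In the germ band they were 6.27 (5.96–6.59), below the 8.46 of the axis nuclei. The positions of the 2 stages are separate scales. Placed nuclei above 50% of the maximum were 373 of 1140 in the germ disc and 126 of 1387 in the germ band. The placed sets differ in tissue, because the study's radius includes presumptive mesoderm and its axis holds ectoderm alone. Neither these shares nor the ratio over all placed nuclei therefore compare like tissue.

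At late stage 5, the highest of the 15 rebuilt clusters, cluster 8, had a level of 23.1 (22.4–23.8), with 14 of its 326 nuclei placed on the radius. Clusters 0 and 2, with median positions of 38.8 and 23.2, had 20.1 and 19.5, with overlapping intervals. Cluster 1, with a median radius position of 50.8, had 4.55 (4.32–4.80). Cluster 7, the single cluster with *Pt-twist* near 1 molecule per 10000 (1.06) and a median position of 5.79 at the rim, had 1.53 (1.36–1.72), with 20.0% of 340 nuclei positive. Cluster 10, which had the highest At_eW_012_A08, an endoderm marker at this stage, had 0.220 (0.155–0.303), with 5.71% of 210 nuclei positive at a median depth of 7938, and 21 of its 37 molecules were in 1 nucleus. Cluster 9, which had the fewest genes per nucleus and 1 placed nucleus, had 12.7 (12.1–13.3).

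Neighboring genes gave the band its place in the stage-7 series. Going posteriorly, the peak of the Hox gene *Pt-pb-A* (proboscipedia in *Drosophila*) was at 23, of *Pt-lab-A* at 26, of *Pt-lab-B* and *Pt-h15-1* at 28 and of *Pt-BarH1* at 31. They were followed by *Pt-dll*, the spider Distal-less gene of limb development, at 33, *Pt-osr-B*, an odd-skipped related zinc finger gene, at 38, and *Pt-scr-A*, a Sex combs reduced type Hox gene, at 47. The ranges above 50% of the maximum were 19.8 to 25.4 for *Pt-pb-A*, 22.4 to 31.3 for *Pt-lab-A*, 24.8 to 33.7 for *Pt-h15-1*, 27.6 to 34.5 for *Pt-BarH1*, 30.5 to 37.4 for *Pt-dll* and 33.4 to 40.6 for *Pt-osr-B*. *Pt-BarH1* thus lay posterior to *Pt-pb-A* with no overlap of these ranges, across the posterior part of *Pt-lab-A* and the anterior part of *Pt-dll*, and touched *Pt-osr-B* at its posterior limit. The order of these peaks was the same with positions reassigned from neighbors found without *Pt-BarH1*. Pooled counts put the shifts beyond counting error, and they were not tested against the spread between nuclei. From positions 25 to 30 to positions 30 to 35, *Pt-lab-A* went from 4.31 (3.86–4.79) to 1.72 (1.45–2.03) and *Pt-h15-1* from 24.5 (23.4–25.6) to 10.3 (9.62–11.0), whereas *Pt-BarH1* went from 5.94 to 8.34 and *Pt-dll* from 0.718 (0.544–0.930) to 4.95 (4.48–5.46). Among the nuclei above 50% of the maximum for *Pt-BarH1*, 94.4% had *Pt-h15-1*, 63.5% *Pt-lab-A*, 58.7% *Pt-dll*, 21.4% *Pt-osr-B* and 3.97% *Pt-pb-A*.

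The order of limits was different in the germ disc. There *Pt-BarH1* began anterior to *Pt-lab-A* (16.9 against 22.2) and ended posterior to it (44.6 against 39.8), so the *Pt-lab-A* domain lay inside that of *Pt-BarH1*. At stage 7 the *Pt-BarH1* band began posterior to *Pt-lab-A* (27.6 against 22.4). *Pt-h15-1* was posterior to *Pt-BarH1* in the germ disc, with limits of 29.1 and 48.8 and a peak at 42, and anterior to it in the germ band. These orders of limits held with positions reassigned from neighbors found without *Pt-BarH1*. They also held with a smoothing span of 0.1 in place of 0.05, apart from a posterior limit at stage 7. With the wider span, that of *Pt-h15-1* (35.6) passed that of *Pt-BarH1* (34.7). Counts gave the same picture. In late stage-5 positions 15 to 20, *Pt-BarH1* was at 12.1 (10.9–13.3) against 26.6 in its highest stretch, and *Pt-lab-A* was at 0.837 (0.556–1.21) against 6.07. The Hedgehog ligand gene *Pt-hh* had its highest stretch at 20 to 25 (59.0) and still 46.0 at 25 to 30, inside the *Pt-BarH1* domain. At stage 7 *Pt-hh* was at 10.51 (9.81–11.3) in positions 25 to 30 and at 0.732 (0.559–0.943) in 30 to 35, the highest *Pt-BarH1* stretch.

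**Figure D3:**
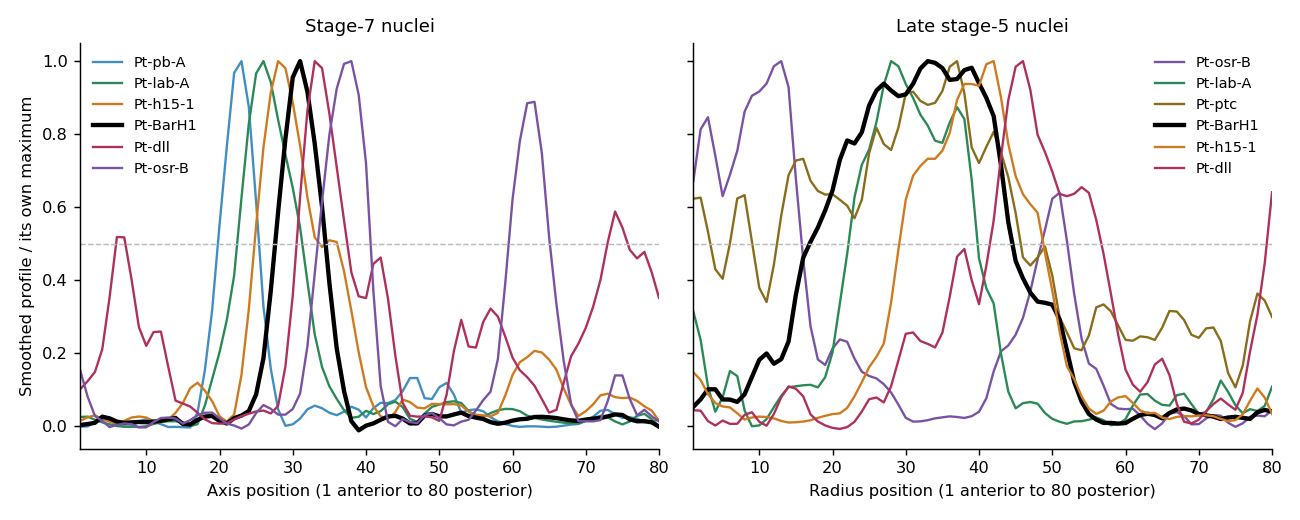
Smoothed profiles of *Pt-BarH1* (black) and 5 neighboring genes along the stage-7 axis (left) and the late stage-5 radius (right), each divided by its own maximum (y axis, no unit). The dashed line marks 50% of the maximum. At stage 7 the *Pt-BarH1* band spans 27.6 to 34.5 between *Pt-h15-1* and *Pt-dll*, and at late stage 5 its domain spans 16.9 to 44.6 and contains that of *Pt-lab-A*.

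Genes most like *Pt-BarH1* were ranked by Pearson correlation (r) of the smoothed profiles over the 80 positions, a description of 1 library in which all points share the same nuclei. At stage 7, 125 of 7377 genes with at least 200 molecules, or 1.69%, had r above 0.5, and 54, or 0.732%, had r below -0.5. The ranking depended on the measure: by Spearman correlation 54 genes were above 0.5 and 2 of the 10 highest were kept, and with a smoothing span of 0.1 these numbers were 466 and 6. The 10 highest by Pearson correlation included 2 transcription factor genes, *Pt-h15-1* (r = 0.83) and the forkhead gene LOC107443349 (FoxB1-like, r = 0.69). They included 3 genes of receptors or related cell surface proteins, which were *Pt-Notch* (0.74), the axon guidance receptor gene LOC107447205 (roundabout homolog 1, 0.79) and LOC107455121 (tyrosine-protein phosphatase 99A, 0.67). A further member was LOC107443668, annotated as TIKI2, a metalloprotease that inactivates Wnt ligands in vertebrates (0.79). The rest were LOC107449282, uncharacterized (0.84), LOC122271530, a yippee-like gene (0.78), LOC107442777, a U3 small nucleolar ribonucleoprotein gene (0.75), and LOC107436164, a serine/arginine repetitive matrix protein gene (0.68). Most were also expressed outside the band, where *Pt-BarH1* itself was at 0.100 against 8.46 inside it. *Pt-Notch* was at 28.8 inside against 4.13 outside and extended to position 45. *Pt-h15-1* was at 16.99 against 1.203, TIKI2 at 0.686 against 0.0775 and FoxB1-like at 0.465 against 0.100. LOC107449282 was at 12.5 against 5.87 and was in 99.2% of the nuclei of the band. The lowest r was -0.71, for the uncharacterized gene LOC107443364, which was at 1.65 inside and 4.19 outside. LOC107451299, annotated as a tubulin alpha chain, followed at -0.68, and then LOC107444066 (-0.65), LOC107444456 (-0.62) and LOC107447531 (-0.61).

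At late stage 5, 95 of 5472 genes, or 1.74%, had r above 0.5, and 48, or 0.877%, had r below -0.5. By Spearman correlation 9 of the 10 highest were kept, and with a span of 0.1 all 10 were, although 312 genes were then above 0.5. The Hedgehog pathway genes among the 10 highest were *Pt-ptc* (r = 0.88), the gene of the Hedgehog receptor Patched, and LOC107456312 (0.86). The latter is annotated as smoothened, the signal transducer that Patched restrains. The ligand gene *Pt-hh* was not among them, at 0.39. The transcriptional regulators were *Pt-opa* (0.89), a Zic-type gene named after the *Drosophila* pair-rule gene odd-paired, *Pt-lab-A* (0.87) and LOC107445501 (transducin-like enhancer protein 4, a Groucho-type corepressor, 0.84). *Pt-latrophilin-B*, an adhesion G protein-coupled receptor gene, had the highest r (0.90). LOC107455688 (0.89) is a long noncoding RNA gene that lies between *Pt-lab-A* and *Pt-pb-A* in the RefSeq annotation of the assembly CAS_Ptep_4.0. LOC107449667 (centromere-associated protein E, 0.86), LOC107439303 (hemicentin-2, 0.81) and LOC107437031 (0.74) completed the set. *Pt-opa* was at 12.5 inside the domain and 2.26 outside, *Pt-lab-A* at 4.04 and 0.355, LOC107455688 at 3.20 and 0.348, and *Pt-ptc* at 3.29 and 1.41. The lowest were LOC107446595 (-0.82) and LOC107443364 (-0.81), both uncharacterized, LOC107451685 (roundabout homolog 3, -0.73), LOC107441660 (unconventional myosin-Ie, -0.67) and LOC107445228, the study's *Pt-prd2* (annotated as gooseberry, a paired-type segmentation gene in *Drosophila*, -0.66).

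Each stage's companions were then read at the other stage. Of the 10 highest genes at late stage 5, *Pt-latrophilin-B* (r = 0.59), LOC107455688 (0.57) and *Pt-lab-A* (0.56) were also above 0.5 at stage 7, and *Pt-opa* was at -0.11, *Pt-ptc* at 0.27, smoothened at 0.09 and hemicentin-2 at -0.25. Of the 10 highest at stage 7, *Pt-h15-1* (0.73), LOC107449282 (0.72), the yippee-like gene (0.65) and tyrosine-protein phosphatase 99A (0.57) were above 0.5 at late stage 5, and *Pt-Notch* was at 0.49. FoxB1-like had 1 molecule in the late stage-5 radius nuclei. LOC107443364 was among the 5 lowest at both stages.

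Counts over gene lists are read against all genes, of which 1.69% were above 0.5 and 0.732% below -0.5 at stage 7, and 1.74% and 0.877% at late stage 5, with a median r of 0.01 at both stages. Of 7 Hox genes tested at stage 7, *Pt-lab-B* (0.57) and *Pt-lab-A* were above 0.5, none was below -0.5, and the median was -0.17. Of 2 tested at late stage 5, *Pt-lab-A* was above and *Pt-ftz* (-0.65) below. Of 5 limb genes tested, 1 was above 0.5 at stage 7 (*Pt-h15-1*) and 2 were at late stage 5 (*Pt-h15-1* and *Meis1*, 0.53), with none below, and medians of 0.39 and 0.10. Of 11 signaling genes at stage 7, *Pt-Notch* and the Wnt receptor genes *Pt-fz* (0.63) and *Pt-frizzled4* (0.55) were above, with a median of 0.11. Of 10 tested at late stage 5, *Pt-ptc* was above and *Pt-Delta*, the Notch ligand gene (-0.54), below. The 3 stripe genes *Pt-hh*, *Pt-msx1* and *Pt-noto1* were between -0.30 and -0.10 at stage 7, and *Pt-msx1* was at -0.66 at late stage 5. Of 39 genes described as homeobox genes, Hox genes included, 32 were tested at stage 7, with 2 above (*Pt-lab-A* and *Pt-lab-B*) and none below, and 20 at late stage 5, with 5 above and 4 below. No other gene with a Bar name was among the 1328 genes with a description.

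In the same nuclei, companions were compared between nuclei with and without a *Pt-BarH1* molecule, inside the stretch above 50% of the maximum. At late stage 5, *Pt-h15-1* was in 64.9% (59.6–70.0%) of 345 nuclei with *Pt-BarH1* and 25.0% (10.7–44.9%) of 28 without. *Pt-ptc* was in 77.4% and 39.3%, *Pt-lab-A* in 61.4% and 25.0%, and LOC107455688 in 56.2% and 14.3%. The Wnt ligand genes were the other way round, *Pt-wnt8* in 19.7% (15.6–24.3%) and 46.4% (27.5–66.1%), and *Pt-wnt5* in 33% (28.1–38.3%) and 57.1% (37.2–75.5%), with overlapping intervals for *Pt-wnt5*. Of the 28 nuclei without *Pt-BarH1*, 18 lay at positions 16.9 to 25 and 8 at 40 to 44.6, against 80 and 59 of the 345 with it. *Pt-wnt8* was at 5.48 in positions 20 to 25 and 0.0603 in 40 to 45, and *Pt-h15-1* at 0.889 and 15.9. Nuclei were not matched for position, and its part in these shares was not tested. After thinning, *Pt-h15-1* was in 55.2% (49.6–60.8%) of 315 nuclei and 34.5% (22.5–48.1%) of 58, without overlap of intervals, and the intervals of *Pt-ptc*, *Pt-lab-A* and *Pt-wnt8* overlapped. At stage 7, *Pt-lab-A* was in 67.0% (57.4–75.6%) of 112 nuclei and 35.7% (12.8–64.9%) of 14, and *Pt-lab-B* in 50.9% and 14.3%, all with overlapping intervals, and *Pt-Notch* was in all nuclei of both kinds. Correlations over nuclei were weak, between -0.33 and 0.35 for 4653 genes over 126 stage-7 nuclei and between -0.22 and 0.25 for 6204 genes over 373 late stage-5 nuclei.

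**Figure D4:**
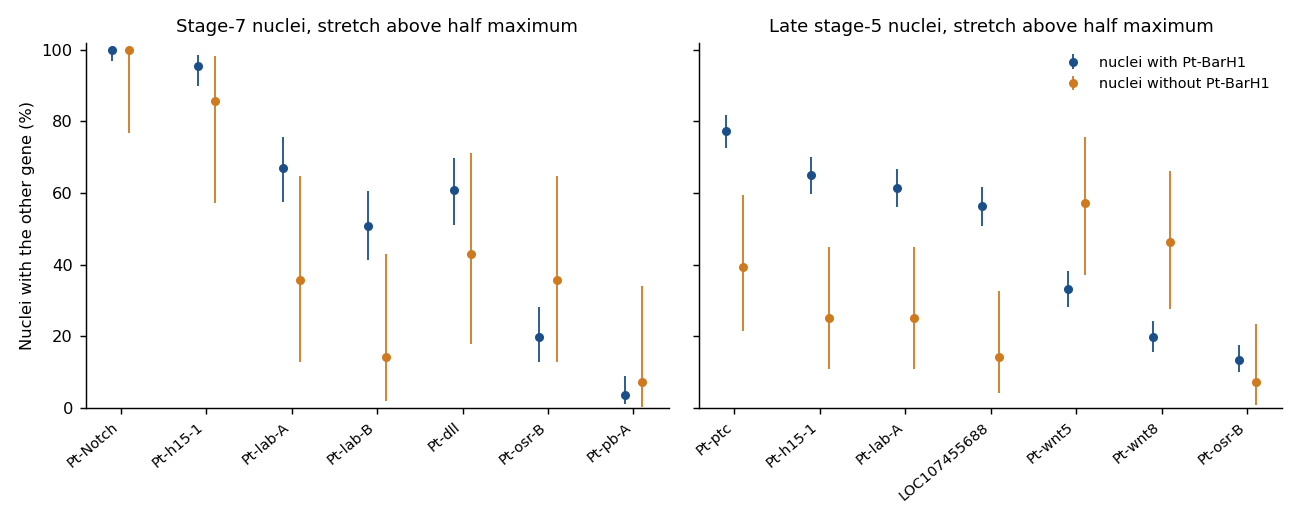
Percent of nuclei with at least 1 molecule of another gene (y axis) among nuclei with *Pt-BarH1* (blue) and without it (orange), in the stretch above 50% of the maximum at stage 7 (left, 112 and 14 nuclei) and late stage 5 (right, 345 and 28 nuclei). Bars are 95% Clopper-Pearson intervals. At late stage 5, *Pt-ptc*, *Pt-h15-1*, *Pt-lab-A* and LOC107455688 were more frequent beside *Pt-BarH1*, and *Pt-wnt5* and *Pt-wnt8* less frequent.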

How the data were processed

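Per the study's methods, the authors processed reads with the BD Rhapsody pipeline, aligned them to the genome build Ptep_3.0 with STAR 2.5.2b and counted molecules per gene by molecular identifiers, in exons for cells and in exons and introns for nuclei. The deposited count tables hold raw molecule counts after the authors' limits on genes and molecules, which were the only treatment of doublets. The deposited natural log tables were not used and values were recomputed as ln(1 + count per 10000). The late stage-5 matrix is from an earlier library of the authors and has no sample in the labels used here. From the counts, levels and shares were computed with intervals that cover counting error only (Python 3.11.15, scipy 1.17.1). All barcodes had over 2000 molecules and were thinned to that number. Clusters were rebuilt with Seurat 5.3.0 in R 4.3.3 (the authors used 4.1.1), with 2000 variable features less *Pt-BarH1*, at resolution 2.5 for stage-7 nuclei, 1.4 for late stage-5 nuclei and 0.5 for cells, so cluster numbers are not the study's.

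Axis positions were the authors' assignments for nuclei within 0.3 units of the axis, and profiles used loess with a span of 0.05. The profile correlation was also computed on simulated Poisson counts. Of simulated flat genes, 0.139% at stage 7 and 0.512% at late stage 5 had r above 0.5. Of genes with a share of 0.25 of their molecules following the *Pt-BarH1* shape, 100% and 96.7% did. Real genes can be patterned along the axis, and *Pt-BarH1* counts varied more than Poisson counts. The simulated shares therefore do not apply to the ranking of real genes. Named genes are the 10 highest and 5 lowest by profile correlation at each stage, the study's AP markers, and members of lists of Hox, limb, signaling, stripe and homeobox genes. Neighboring genes in the stage series and the co-detection comparison were named from these sets. The members and lists were chosen with earlier results of these data known. Homeobox descriptions cover only genes described in the study's supplementary lists. Cell placement, the placement of nuclei off the axis and the omission of clusters of low counts were chosen after seeing the data.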

Additional observations from a re-analysis of the deposited data

How the results depend on the processing

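No paired analysis was possible because each condition is 1 library. For the same reason no library could be left out, and intervals cover counting error only, so a difference between stages cannot be told apart from one between libraries. The band of stage 7 peaked at position 31 or in the stretch around 32.5 in all nuclear alternatives. The late stage-5 maximum moved to 38 with a span of 0.1 or nuclei within 0.15 units, to 39 without the log and to 27.5 in nuclei off the radius. The stage-7 nuclear level was 0.525 before filtering, 0.618 without the 10 most abundant genes and 0.650 as a mean over nuclei, and the late stage-5 level was 8.33 without those genes. Percentages of positive barcodes were 6.76%, 38.1% and 3.01% after thinning in stage-7 nuclei, late stage-5 nuclei and cells, and 16.6% in stage-7 nuclei before filtering. The stage ratio was 15.4 before filtering, 10.3 in placed nuclei and 12.8 without clusters of low counts. The highest cluster level was 3.19 at resolution 0.5 and 6.69 with all variable features in stage-7 nuclei, 21.4 at resolution 0.5 and 24.7 with 1000 features at late stage 5, and 0.592 and 1.22 at resolutions 1 and 2.5 in cells. Genes with a profile r above 0.5 numbered 54 by Spearman correlation and 466 with a span of 0.1 at stage 7, each of 7377 tested. At late stage 5 they were 312 of 5472 with that span. With at least 20 molecules they were 143 of 11034, against 95 of 5472 in the ranking. By Spearman correlation, 2 of the 10 most similar genes of stage 7 and 9 of the 10 of late stage 5 were kept. At stage 7, 103 of 4653 genes had r above 0.2 over nuclei and 95 had r below -0.2. After thinning these numbers were 50 and 73, and over all placed nuclei 21 and 6 of 10061 genes. At late stage 5, 5 of 6204 genes were above 0.2 and 3 below -0.2. After thinning these numbers were 3 and 0, and over all placed nuclei 36 and 34 of 9073 genes. The cause of these shifts was not tested.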

Other observations

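Outside the placed nuclei, several late stage-5 clusters carried intermediate levels of *Pt-BarH1*. Cluster 6, with 350 nuclei of which 2 were placed on the radius, had 5.79 (5.46–6.14) molecules per 10000 with 45.4% positive. Its extraembryonic markers *Pt-noggin-D* and LOC107448880 were at 5.35 and 29.6, against at most 0.769 and 4.55 in the other late stage-5 clusters, and *Pt-AP2-A*, a marker of the germ-disc center, was at 7.20, against 14.5 in cluster 11. Cluster 5, with 355 nuclei and none placed, had 2.85 (2.62–3.10) with 34.6% positive. It had *Pt-rhomboid*, a marker of the intermediate region, at 5.13, against 5.54 in cluster 1 at radius position 50.8, and *Pt-AP2-A* at 3.41. Cluster 14, with 22 nuclei and none placed, had 7.20 (5.68–8.997). At stage 7 the unplaced cluster 23, with 65 nuclei, had 0.436 (0.298–0.616), with 10.8% of its nuclei positive and 17 of its 32 molecules in 1 nucleus. It had LOC107448880 at 20.97, *Pt-noggin-D* at 2.34 and the head marker *Pt-otd* at 2.999. The first of these genes was at 31.7 and 35.5 in clusters 21 and 22, where *Pt-BarH1* was at 0.226 (0.157–0.316) and 0.0258 (0.00312–0.0931).

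The genes annotated beside *Pt-BarH1* in the assembly CAS_Ptep_4.0 were mostly too sparse to place. LOC107441496, a protein-coding gene that is the second gene on one side, had 59 molecules in the late stage-5 radius nuclei and 7 in the stage-7 axis nuclei. Its late stage-5 profile had r = 0.84 with that of *Pt-BarH1*, with 0.211 molecules per 10000 inside the domain and 0.0419 outside, below the minimum of 200 molecules used for the ranking. The long noncoding RNA gene LOC107456034, directly beside *Pt-BarH1* on the same side, had 2 and 0 molecules. LOC107449252, annotated as Wnt-11 and the third gene on the other side, was at 0.0533 inside the stage-7 band and 0.354 outside. Only 2 neighbors passed the minimum at stage 7 and none did at late stage 5. These were LOC107449252, with r = -0.305, and LOC107439102, the second gene on its side, with r = -0.0978.

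A second T-box gene, *Pt-tbx20-A*, was near *Pt-BarH1* in both profiles but below the same minimum. It had 112 molecules and r = 0.73 at stage 7, at 0.389 inside and 0.0418 outside the band, and 188 molecules and r = 0.67 at late stage 5, at 0.798 and 0.0715.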
